A study of Mus musculus with 4 samples.

Results

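The genes described here are 6 subunits of the GABA-A receptor, the alpha subunits Gabra2 and Gabra3, the beta subunits Gabrb1 and Gabrb2, and the gamma subunits Gabrg1 and Gabrg3. They were taken by symbol from the 32285 genes of the matrices, and all 6 were found in every matrix. Other subunit genes of the family were not analysed here, apart from those counted with the pathway list below.

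Nuclei came from the cortex of wild-type C57BL/6J mice. The risperidone group received the antipsychotic, a blocker of dopamine and serotonin receptors, at 4 mg/kg by daily intraperitoneal injection from postnatal day (PND) 22 for 21 days, the control group received saline on the same days, and both groups were examined at PND 90. The drug-free period before that is 43 days in the labels, which is shorter than the time left between the last dose and PND 90 by the same labels. Right hemicortices of 5 male and 5 female mice were minced into 1 pool per condition, and each pool was run on 2 lanes of a droplet instrument for single-nucleus RNA sequencing. The 2 lanes are technical runs of 1 pool, so animals cannot be told apart, no test between conditions is possible, and all intervals below are 95% exact intervals that cover counting error only.

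GABA-A receptors are chloride channels built of several subunits around a pore, usually alpha, beta and gamma subunits together, and they carry fast inhibition in the cortex. The alpha subunit shapes GABA affinity and kinetics and, with the gamma subunit, forms the benzodiazepine site, the beta subunit contributes to GABA binding, and the gamma subunit takes part in clustering at synapses. Astrocytes also carry such receptors.

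The deposited matrices listed between 23450 and 29986 nuclei per lane, and 119736937 to 203675013 unique molecular identifiers (UMIs). In the order saline 1, saline 2, risperidone 1, risperidone 2, which is kept in every series of 4 values below, the median UMIs per nucleus were 3297, 4049, 5648 and 7766. Nuclei with Xist and no Y-linked UMIs made up 37.7%, 39.1%, 49.6% and 48.6% of the lanes, and those with Y-linked and no Xist UMIs 17.9%, 18.3%, 18.6% and 19.4%. The risperidone lanes were deeper, and both shares were higher in them. Between 539 and 617 barcodes per lane were also listed in another lane. Nuclei were assigned to 16 types from the UMIs of marker genes that exclude the 6 subunits, and a type is called X-like because the name rests on those markers alone. The 16 types comprised 8 layer types of glutamatergic neurons, 4 interneuron types named for Pvalb (PV), Sst, Vip and Lamp5, spiny projection neurons of striatal type (SPN), astrocytes, oligodendrocytes and oligodendrocyte precursor cells (OPC). The layer types were intratelencephalic (IT) neurons of L2/3, L4/5, L5 and L6, L5 extratelencephalic (ET), near-projecting (NP), L6 corticothalamic (CT) and claustrum-type (claustrum-like) neurons. All glutamatergic-like nuclei together, 53287 in number, are given as a class. Within it, 48.4%, 40.6%, 24.6% and 18.1% lay near or under the limit of the layer call, more in the saline lanes. Those under it have no layer type and enter the class only. Every class marker of the glutamatergic panel (8 of 8) and of the GABAergic panel (7 of 7) was detected in its class. Of their own panels, L5 ET-like nuclei had 3 of 5 markers detected and SST-like nuclei 6 of 7, and the other described types had all. Detection says little on purity, since every GABAergic marker also had UMIs in glutamatergic-like nuclei. Layer 6b, microglia, endothelial and mural nuclei, 172 to 384 nuclei each, were too few to be described.

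Free RNA and mixed droplets add UMIs of other nuclei to every type, and the share of RNA expected from other nuclei was estimated from the marker genes of other classes. It was 25.7%, 26.5%, 21.2% and 19.4% in glutamatergic-like nuclei. It reached 48.7%, 48.5%, 43.5% and 43.5% in astrocyte-like nuclei and 60.8%, 62.5%, 58.4% and 49.1% in OPC-like nuclei. The share expected from other nuclei was thus lower in the risperidone lanes of these 3 classes, and levels of each gene are set beside it where the call rests on it.

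On GRCm38, Gabrg1 (ENSMUSG00000001260, minus strand), Gabra2 (ENSMUSG00000000560, minus strand) and Gabrb1 (ENSMUSG00000029212, plus strand) lie together on chromosome 5, at chr5:70751047-70842617, chr5:70957597-71095849 and chr5:71658113-72149037. The gap between Gabrg1 and Gabra2 was 115 kb and that between Gabra2 and Gabrb1 was 562 kb. Gabrg3 (ENSMUSG00000055026, minus strand) lies at chr7:56716465-57387188, Gabrb2 (ENSMUSG00000007653, plus strand) at chr11:42419757-42629028 and Gabra3 (ENSMUSG00000031343, minus strand) at chrX:72432681-72656848. The genes span 91.6 kb (Gabrg1) to 671 kb (Gabrg3), most of it intron, and intronic reads were counted. The 5' end of Gabrb1 overlaps exons of Gabra4 on the opposite strand.

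The neighbours Gabrg1 and Gabra2 were both measured above background in astrocyte-like nuclei, and the 250 bases upstream of each start site are shown because they differ in base composition. Capitals mark TTGGC or its reverse complement GCCAA, letters found in sites of nuclear factor I, a factor family known for its part in astrocyte development. The sequences are RefSeq's on GRCm38.p6, read 5' to 3' on the gene's minus strand, from chr5:71095850-71096099 for Gabra2 and chr5:70842618-70842867 for Gabrg1.
Gabra2: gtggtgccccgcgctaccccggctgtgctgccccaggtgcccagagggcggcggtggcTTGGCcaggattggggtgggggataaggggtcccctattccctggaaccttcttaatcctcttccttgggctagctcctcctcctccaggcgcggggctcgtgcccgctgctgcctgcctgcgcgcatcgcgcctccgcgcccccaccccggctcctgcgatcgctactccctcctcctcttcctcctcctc
Gabrg1: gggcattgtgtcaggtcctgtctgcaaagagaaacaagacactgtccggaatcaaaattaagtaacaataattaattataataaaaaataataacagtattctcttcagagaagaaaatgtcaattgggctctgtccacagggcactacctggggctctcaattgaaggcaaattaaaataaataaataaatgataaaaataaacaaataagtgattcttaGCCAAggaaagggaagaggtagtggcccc
The Gabra2 window held 18 CG dinucleotides at 70.0% GC, and the Gabrg1 window held 1 at 35.6% GC. The median window held 6 CG dinucleotides at 52.4% GC. The motif was in 41.5% of the 32851 upstream windows and is thus a common sequence. Among the other 4 members, the windows of Gabrb2 and Gabrg3 held 1 match each and those of Gabrb1 and Gabra3 held 0. Gabrb2 had 3 listed windows and Gabrb1 and Gabra3 had 2 each, of which only the most upstream was read. The Gabrb2 window, chr11:42420190-42420439, lies inside the gene span given above. The Gabrb1 window was as rich in CG as that of Gabra2 (18 CG, 64.4% GC), whereas the Gabra3 window held 0 CG (42.4% GC).

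Levels are the UMIs of a gene divided by all UMIs of the type and multiplied by 1000000 (CPM), as the mean of the 4 lanes unless lanes are given. Gabra2 was highest in astrocyte-like (470 CPM), SPN-like (455 CPM) and L2/3 IT-like nuclei (442 CPM), whose lane ranges overlapped, so that the top rank is not resolved. It was lowest in PV-like nuclei (104 CPM), a ratio of highest to lowest of 4.54. In PV-like nuclei 74.7% to 129% of the Gabra2 level was expected from other nuclei, so the low end of this ratio is largely background. Of the 15 pairs of neighbours in this order, 13 overlapped in their lanes, so most of the order is not resolved. Gabra3 had the narrowest measured span, from 117 CPM in SST-like and L6 IT-like nuclei to 29.7 CPM in astrocyte-like nuclei, a ratio of 3.94, with 14 of 15 neighbours overlapping. Its low end is read as background too, since 103% to 198% of the astrocyte-like level was expected from other nuclei.

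Gabrb1 stood apart in astrocyte-like nuclei at 3848 CPM. The next types were L6 CT-like (1194 CPM) and L6 IT-like nuclei (1188 CPM), and the lowest were SST-like (563 CPM) and PV-like nuclei (522 CPM). The other beta subunit, Gabrb2, was highest in LAMP5-like nuclei (1139 CPM) and lowest in astrocyte-like nuclei (146 CPM). The latter level is read as background, with 118% to 215% of it expected from other nuclei. In LAMP5-like nuclei all 4 lanes of Gabrb2 lay above those of VIP-like (652 CPM) and PV-like nuclei (651 CPM), which did not differ beyond their lanes.

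Gabrg1 was at 79.2 CPM in astrocyte-like nuclei and 32.8 CPM in OPC-like nuclei. In the other 14 types it was below 10 CPM, the minimum for a fold change here. Gabrg3 was highest in LAMP5-like (3668 CPM) and PV-like nuclei (2844 CPM), followed by SPN-like (1807 CPM) and VIP-like nuclei (1519 CPM), and it was lowest in astrocyte-like (353 CPM) and L4/5 IT-like nuclei (310 CPM), whose lanes overlapped. Its order was the best resolved, with 9 of 15 neighbours overlapping and a ratio of highest to lowest of 11.8. The low end of this ratio is largely background. From other nuclei, 63.9% to 76.6% of the L4/5 IT-like level and 124% to 162% of the astrocyte-like level were expected.

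**Figure D1:**
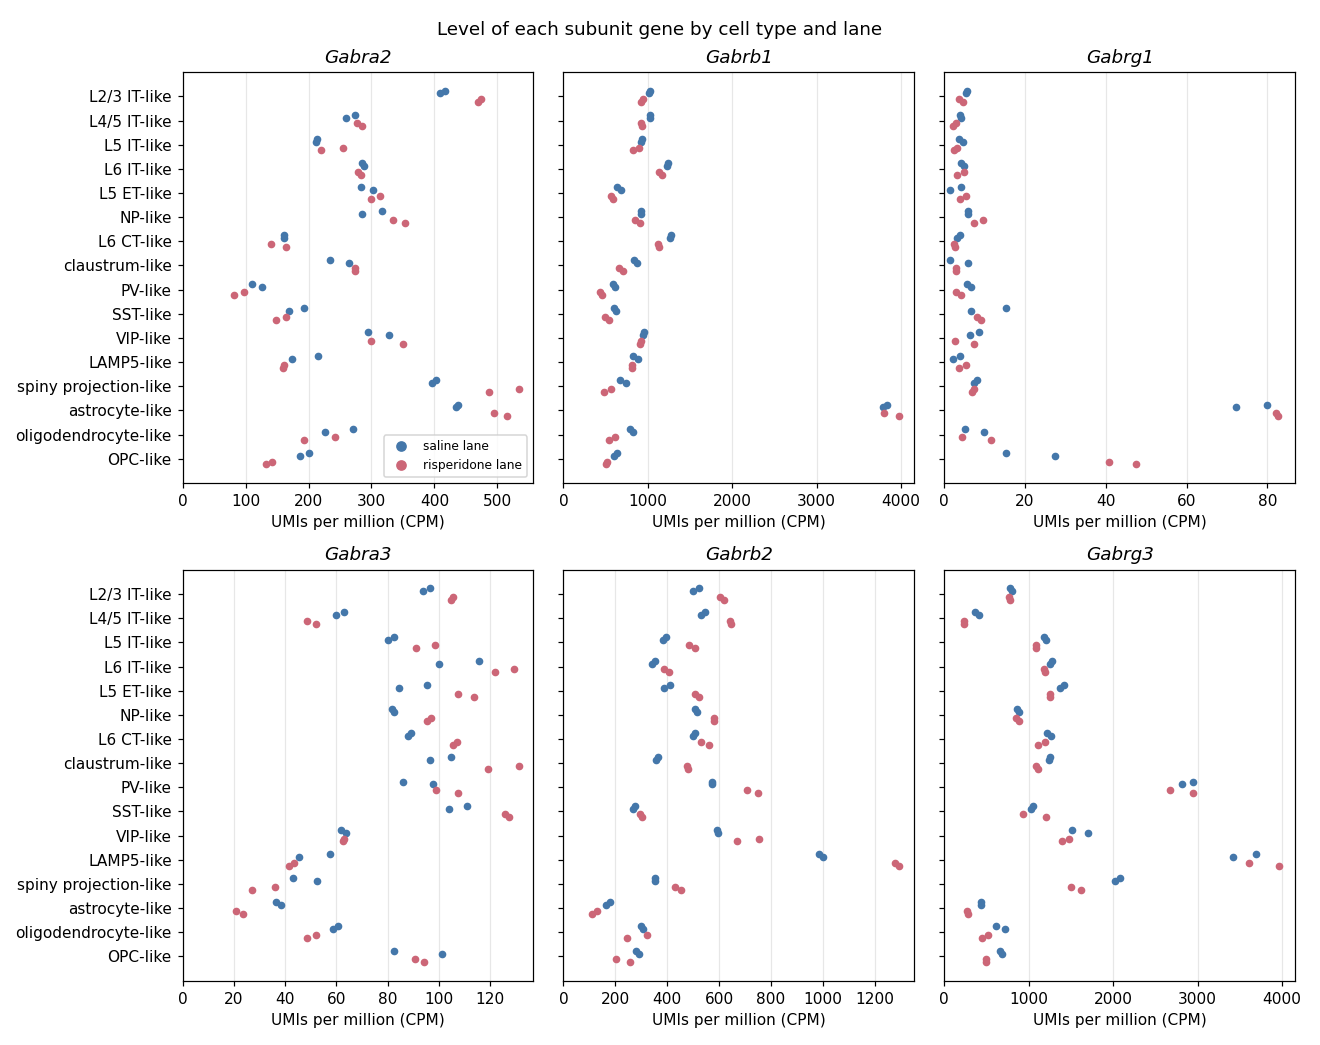
Level of each subunit gene (CPM, linear axis from 0, a different range for each gene) in the 16 cell types, with 1 point for each of the 4 lanes, blue for saline and red for risperidone. Gabrb1 and Gabrg1 stand out in astrocyte-like nuclei and Gabrb2 and Gabrg3 in LAMP5-like nuclei, and the red Gabrb2 points lie above the blue ones in every neuronal type.

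To compare genes with each other, levels were divided by gene length, introns included, since intronic reads were counted, and the order below depends on that choice. In glutamatergic-like nuclei the levels were 2.44 CPM per kb for Gabrb2, 2.43 for Gabra2, 2.05 for Gabrb1, 1.31 for Gabrg3, 0.420 for Gabra3 and 0.0538 for Gabrg1. Divided by exon length instead, the levels of the saline sum were 77.1 CPM per kb for Gabrg3, 76.3 for Gabrb1, 72.5 for Gabrb2 and 41.7 for Gabra2, so Gabra2 was then lower and Gabrg3 no longer below the others. In LAMP5-like nuclei Gabrb2 (5.44 CPM per kb) and Gabrg3 (5.47 CPM per kb) were at near-equal levels per gene length, but at 156 and 299 CPM per kb of exon in the saline sum. In astrocyte-like nuclei Gabrb1 led with 7.84 CPM per kb of gene, followed by Gabra2 with 3.40 and Gabrg1 with 0.865. For those 3 genes, 1 of each kind, the level expected from other nuclei was 11% to 14.3%, 29.0% to 34.9% and 5.58% to 6.65% of the measured level. For Gabra3, Gabrb2 and Gabrg3 in the same nuclei it was 103% to 198%, 118% to 215% and 124% to 162%, at or above what was measured in every lane, and these levels are read as background.

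Counted by nucleus, after thinning every nucleus to 2000 UMIs and leaving out shallower ones, Gabrb1 was detected in 99.5%, 99.2%, 99.4% and 99.5% of astrocyte-like nuclei. Between 334 and 852 nuclei per lane remained for this count, and 382 to 922 were left out. Gabrg1 was detected in 15.2%, 15.0%, 9.58% and 16% of the same nuclei, against 0.919% to 1.03% expected from other nuclei, and in 14.2%, 16.9%, 13.9% and 17.0% without thinning. The lanes of the conditions overlapped, and risperidone lane 1, with the shallowest astrocyte-like nuclei (a median of 1605 UMIs), had the lowest share.

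The comparison of the conditions asks whether adult nuclei of each type held other levels of these subunits after adolescent risperidone. A log2 fold change is risperidone over saline on UMIs summed over the 2 lanes, scaled by factors from the trimmed mean of M-values (TMM). A gene was called higher or lower in a type when its mean level was at least 10 CPM, its log2 fold change was at least 0.5 in size, and the lanes of the conditions did not overlap after scaling. Of the 96 pairs of subunit gene and type, 82 reached 10 CPM. Of these, 1 was called higher (1.22%), where 6.87% of the 117407 gene and type pairs over all genes were. A further 12 were called lower (14.6%), where 9.69% of all pairs were. With the UMIs expected from other nuclei taken out, these shares were 9.46% and 10.2%, so the share of the subunits was then no longer the higher. Of the 12, 7 were in glial types, and in these the level expected from other nuclei was over 90% of the measured level in every lane.

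No subunit of the 5 at 10 CPM or more was called in glutamatergic-like nuclei. Of the 7196 genes tested there, 4.22% were called higher and 7.96% lower, so 0 of 5 does not set the subunits apart. Gabrb1 was at 1053, 1059, 960 and 955 CPM, a log2 fold change of -0.24 (-0.25 to -0.23). Both risperidone lanes were below both saline lanes. Gabrb2 was at 455, 466, 550 and 568 CPM, a log2 fold change of 0.18 (0.17 to 0.20), and here both risperidone lanes were above.

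Gabrg3 was at 923, 917, 846 and 842 CPM in the same nuclei, a log2 fold change of -0.22 (-0.23 to -0.21). The summed level of the 7 GABAergic class markers, all detected in every lane, was 754, 713, 431 and 424 CPM in these nuclei, and its part in the Gabrg3 difference was not tested. With the UMIs expected from other nuclei taken out, the Gabrg3 difference was -0.22 as well. The profile taken out was that of all nuclei of the lane, these included, so this value does not isolate the RNA of other nuclei. The alpha subunits differed little. Gabra2 was at 313, 324, 353 and 356 CPM (0.05, interval 0.04 to 0.07) and Gabra3 at 86.7, 90.9, 100.4 and 99 CPM (0.06, interval 0.03 to 0.10). Without TMM factors, the same log2 fold changes were 0.15 for Gabra2, 0.16 for Gabra3, -0.14 for Gabrb1, 0.28 for Gabrb2 and -0.13 for Gabrg3, so no direction flipped but the alpha values depend on the scaling. The layer types made up different shares of the class in the conditions, and with layer types weighted equally the values were 0.01 for Gabra2, 0.10 for Gabra3, -0.24 for Gabrb1, 0.17 for Gabrb2 and -0.23 for Gabrg3.

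Type by type, the beta subunits had opposite signs. Over the 13 neuronal types, the log2 fold change of Gabrb1 was below 0 in 13 of 13, from -0.52 to -0.11 with a median of -0.21, and the lanes of the conditions were apart in all 13. By lane, 11.9% (L6 CT-like) to 71.5% (PV-like) of the Gabrb1 level was expected from other nuclei. The part of that RNA in these differences was not tested. Among all gene and type pairs tested in these neurons, the lanes were apart in the lower direction in 35.6% and in the higher direction in 30.5%, so non-overlap of technical lanes is common. Of the 5798 genes measured in all 13 neuronal types, 485 (8.36%) were lower without overlap in all 13. The log2 fold change of Gabrb2 was above 0 in 13 of 13, from 0.03 to 0.34 with a median of 0.20, and its lanes did not overlap in 12. Of the same genes, 7.59% were higher without overlap in 12 or 13 types.

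In claustrum-like nuclei Gabrb2 was at 355, 364, 474 and 480 CPM, a log2 fold change of 0.34 (0.22 to 0.46). In these nuclei Gabrb1 was at 866, 830, 661 and 709 CPM, a log2 fold change of -0.37 (-0.45 to -0.28). For both genes the risperidone lanes lay clear of the saline lanes, in opposite directions. The level expected from other nuclei was 23.2% to 32.9% of that measured for Gabrb1 and 18.6% to 26.7% for Gabrb2. In L2/3 IT-like nuclei, the most numerous layer type, Gabrb1 was at 1014, 1022, 940 and 924 CPM (-0.21, interval -0.23 to -0.19) and Gabrb2 at 498, 522, 603 and 621 CPM (0.18, interval 0.15 to 0.20). L6 CT-like nuclei had a Gabrb2 difference near 0 (0.03, interval -0.01 to 0.07) beside a Gabrb1 difference of -0.26 (-0.29 to -0.23).

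The deep-layer types had the same opposite signs at other levels. In L5 ET-like nuclei, which project to subcortical targets, Gabrb1 was at 682, 639, 566 and 591 CPM (-0.24, interval -0.32 to -0.17) and Gabrb2 at 387, 409, 506 and 522 CPM (0.30, interval 0.21 to 0.39). The lanes were apart for both genes, with 19.1% to 40.9% of the Gabrb1 level and 11.7% to 24.9% of the Gabrb2 level expected from other nuclei. In L5 IT-like nuclei Gabrb1 was at 917, 934, 896 and 827 CPM (-0.20, interval -0.24 to -0.16), where risperidone lane 2 was lower than risperidone lane 1 by more than lane 1 was below the saline lanes. Gabrb2 in these nuclei was at 385, 393, 483 and 508 CPM (0.26, interval 0.21 to 0.32).

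Among interneurons, VIP-like nuclei, which mostly inhibit other interneurons, had a small Gabrb1 difference, with 946, 952, 915 and 909 CPM (-0.11, interval -0.18 to -0.04). Their Gabrb2 level was 597, 590, 754 and 669 CPM (0.20, interval 0.12 to 0.29), with risperidone lane 1 the highest and both saline lanes below both risperidone lanes. In SST-like nuclei, which inhibit dendrites, Gabrb1 was at 626, 599, 488 and 540 CPM (-0.32, interval -0.41 to -0.23) and Gabrb2 at 267, 276, 296 and 304 CPM (0.07, interval -0.06 to 0.20). The counting interval of the Gabrb2 value included 0.

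Over the 14 alternative settings, Gabrb1 stayed below 0 in 11 to 13 of the neuronal types and Gabrb2 above 0 in 11 to 13. The 2 types in which Gabrb1 was above 0 were L5 ET-like and NP-like nuclei, and only among nuclei with Y-linked and no Xist UMIs. Since the share of nuclei with Xist UMIs differed between the conditions, values within each class of nuclei are given. In glutamatergic-like nuclei, Gabrb1 was at -0.27 among nuclei with Xist and no Y-linked UMIs and at -0.18 among the reverse, and Gabrb2 at 0.21 and 0.17.

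**Figure D2:**
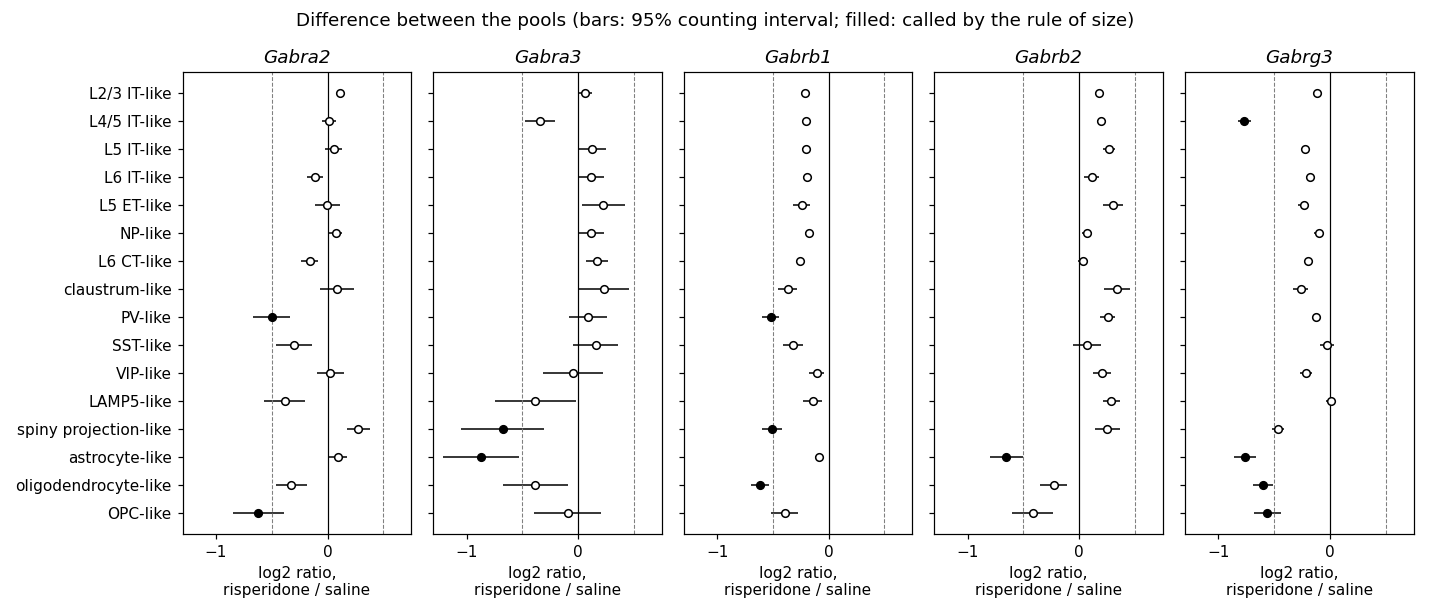
Log2 fold change, risperidone over saline, of 5 of the subunit genes in the 16 cell types, with bars for the 95% exact interval of counting error, filled points for called pairs and dashed lines at -0.5 and 0.5. Gabrg1, below 10 CPM in 14 types, is left out. Gabrb1 lies below 0 and Gabrb2 above 0 in all 13 neuronal types, while Gabra2 and Gabra3 have types on both sides.

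The balance of the 2 beta subunits needs no scaling between lanes, because it is the share of Gabrb1 in the UMIs of Gabrb1 and Gabrb2 together. In glutamatergic-like nuclei this share was 69.8%, 69.5%, 63.6% and 62.7%. Summed by condition, it was 69.6% (69.4 to 69.8) with saline and 63.1% (62.9 to 63.3) with risperidone, 6.52 points lower. Within a condition the lanes were at most 1 point apart.

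PV-like nuclei, the fast-spiking basket-type interneurons, had a wide difference, with 51.6%, 50.6%, 38.0% and 37.8%, or 51.0% (49.8 to 52.3) with saline and 37.9% (36.8 to 39.0) with risperidone. SPN-like nuclei had 67.9%, 65.5%, 56.9% and 51.7%, and claustrum-like nuclei with 70.9%, 69.6%, 58.2% and 59.6%. At the other end, L6 IT-like and NP-like nuclei differed by -3.79 and -4.01 points, and which types were at either end depended on the setting. The share was lower with risperidone in 13 of 13 neuronal types, with the lanes apart in all 13. Of all pairs of the genes measured in these types, 9.4% had a ratio with the lanes apart in 1 direction in all 13, and the count follows in part from the signs of the 2 genes given above. The share was lower in 13 of 13 also among nuclei of at least 2000 UMIs. The same held with the UMIs expected from other nuclei taken out, with differences of -17.97 to -2.67 points and a median of -5.55. The profile taken out was that of all nuclei of the lane, those of the type included. That the direction also held without each lane in turn follows from the lanes being apart and adds no support.

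Glial types had no common direction. In oligodendrocyte-like nuclei the share was 5.64 points lower with risperidone, where at least 92.8% of the level of either gene was expected from other nuclei. In astrocyte-like nuclei the share was 95.8%, 95.5%, 96.7% and 97.3%, higher with risperidone, but the Gabrb2 UMIs in it were at or below the level expected from other nuclei. In OPC-like nuclei the difference was 0.35 points, and the lanes of the conditions overlapped.

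**Figure D3:**
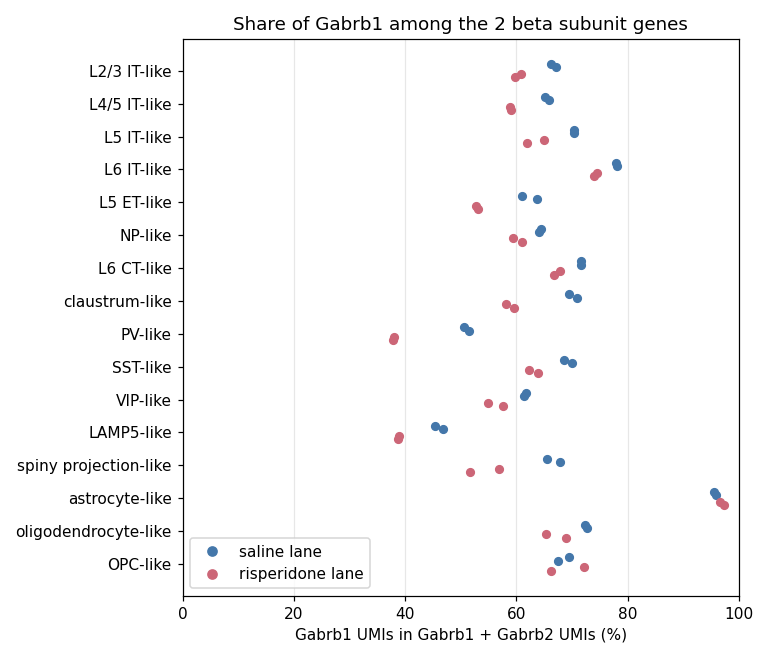
Share of Gabrb1 in the summed UMIs of Gabrb1 and Gabrb2 (percent) for each lane and type. In every neuronal type both risperidone lanes lie below both saline lanes, and in astrocyte-like nuclei they lie above.

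The alpha and gamma pairs had no such common direction. The share of Gabra2 in Gabra2 and Gabra3 together was lower with risperidone in 8 of the 13 neuronal types and higher in 5. It was 56.3%, 56.1%, 49.6% and 43.1% in PV-like nuclei and 61.8%, 63.4%, 56.5% and 53.9% in SST-like nuclei, lower in both risperidone lanes of each. SPN-like nuclei had the opposite, 88.3%, 90.3%, 93.7% and 94.7%. Of the Gabra2 level in PV-like nuclei 74.7% to 129% was expected from other nuclei, and of the Gabra3 level in SPN-like nuclei 46.1% to 69.7%. With those UMIs taken out, the saline and risperidone shares were 27.5% and 0% in PV-like, 53.6% and 46.8% in SST-like and 94.1% and 96.7% in SPN-like nuclei. The share was then lower in 7 of the 13 types and higher in 6. The share of Gabrg1 in Gabrg1 and Gabrg3 was at most 1.44% in any lane of a neuronal type, and it was 14.3%, 15.7%, 23.1% and 22.9% in astrocyte-like nuclei, where the Gabrg3 UMIs are read as background.

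The pairs called by the rule are given by role, starting with the alpha subunits. Gabra2 was called lower in PV-like nuclei, with 126, 110, 97.5 and 81.5 CPM and a log2 fold change of -0.50 (-0.67 to -0.34). The risperidone lanes were below the saline lanes, but the level expected from other nuclei was 74.7% to 129% of the measured one, and the call was made in 7 of the 14 alternatives. In 1 of those 7, with the UMIs expected from other nuclei taken out, 0 risperidone UMIs were left and no fold change could be given. In OPC-like nuclei Gabra2 was also called lower, with 186, 200, 142 and 132 CPM (-0.62, interval -0.85 to -0.39), where 98% to 141% was expected from other nuclei.

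Gabra2 was above 0 in SPN-like nuclei, with 396, 403, 534 and 487 CPM and a log2 fold change of 0.28 (0.17 to 0.38), under the size for a call. Here the risperidone lanes lay above the saline lanes. The share of RNA expected from other nuclei was 35.0%, 35.7%, 17.7% and 16.2% in this type, and its part in the difference was not tested. All SPN-like values rest on 530, 504, 280 and 237 nuclei. Their own 7 class markers summed to 9468, 9296, 7487 and 8038 CPM, lower in the risperidone lanes. Whether the SPN-like nuclei of the conditions are alike was not tested, for any of the subunits.

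Gabra3, the X-linked alpha subunit, was called lower in SPN-like nuclei, with 52.6, 43.1, 36.1 and 27.3 CPM and a log2 fold change of -0.67 (-1.05 to -0.30). All lanes of this type held few Gabra3 UMIs, 184 in the saline sum and 93 in the risperidone sum. Between 46.1% and 69.7% of the level was expected from other nuclei, and the call was made in 11 of 14 alternatives. After thinning, Gabra3 was detected in 9.27%, 7.25%, 7.12% and 4.27% of SPN-like nuclei, against 5.52%, 5.83%, 3.28% and 3.03% expected from other nuclei. In astrocyte-like nuclei Gabra3 was called lower with 38.4, 36.4, 20.7 and 23.4 CPM (-0.87, interval -1.21 to -0.53), a level read as background.

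In cortical neurons Gabra3 was mostly above 0. Its log2 fold change was above 0 in 9 of the 13 neuronal types, with a median of 0.11, and SST-like nuclei, among the types with its highest levels, had 104, 111, 126 and 127 CPM (0.16, interval -0.04 to 0.36). The exceptions among the 12 cortical neuron types were L4/5 IT-like nuclei with 59.7, 62.9, 48.7 and 52.0 CPM (-0.34, interval -0.48 to -0.20), LAMP5-like nuclei with 45.4, 57.6, 43.6 and 41.6 CPM (-0.39, interval -0.75 to -0.02) and VIP-like nuclei (-0.05, interval -0.31 to 0.22). Both risperidone lanes were below both saline lanes in the first 2 of these types. Among nuclei with Y-linked and no Xist UMIs, Gabra3 was above 0 in 6 of 13 types, against 9 of 13 among nuclei with Xist and no Y-linked UMIs.

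Gabrb1 was called lower in PV-like nuclei, with 612, 586, 432 and 456 CPM and a log2 fold change of -0.52 (-0.59 to -0.45). Both risperidone lanes were well below the saline lanes, the call was made in 12 of 14 alternatives, and 55.1% to 71.5% of the level was expected from other nuclei. Gabrb2 in the same nuclei was at 574, 573, 707 and 751 CPM, a log2 fold change of 0.25 (0.19 to 0.32), with 21.9% to 23.1% expected from other nuclei. In SPN-like nuclei Gabrb1 was called lower with 746, 670, 567 and 482 CPM (-0.51, interval -0.60 to -0.42), with 31.4% to 60.0% expected from other nuclei. This call was made in 5 of 14 alternatives, and with the UMIs expected from other nuclei taken out the value was -0.27.

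Gabrb1 was also called lower in oligodendrocyte-like nuclei, with 819, 786, 610 and 541 CPM (-0.62, interval -0.70 to -0.54), where the level expected from other nuclei was 92.8% to 112% of that measured. In astrocyte-like nuclei, where its level was highest, Gabrb1 was at 3786, 3834, 3797 and 3975 CPM, and the lanes of the conditions overlapped before scaling. The log2 fold change there was -0.09 (-0.12 to -0.06) after TMM scaling, and its sign flipped to 0.03 without TMM factors. Gabrb2 was called lower in astrocyte-like nuclei at a background level, with 166, 179, 130 and 110 CPM (-0.65, interval -0.80 to -0.51). In LAMP5-like nuclei, the type with its highest level, Gabrb2 was at 999, 987, 1278 and 1292 CPM, a log2 fold change of 0.29 (0.21 to 0.36), with 7.55% to 13.2% expected from other nuclei. After thinning, Gabrb2 was detected in 83.0%, 79.9%, 89.0% and 89.7% of LAMP5-like nuclei, higher in both risperidone lanes.

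Among neuronal pairs at 10 CPM or more, the largest difference in the reported setting was that of Gabrg3 in L4/5 IT-like nuclei, which receive thalamic input in sensory cortex. Its level was 406, 364, 238 and 231 CPM, a log2 fold change of -0.77 (-0.83 to -0.71), and it was called lower in 14 of 14 alternatives, with values from -1.02 to -0.67. Among the alternatives, for every pair, the minimum of 1 CPM cannot undo a call. Leaving out a lane makes non-overlap easier to meet. The Gabrg3 level of these nuclei was low among the types, with lanes that overlapped those of astrocyte-like nuclei, and 63.9% to 76.6% of it was expected from other nuclei. After thinning, Gabrg3 was detected in 43.4%, 43.3%, 23.6% and 21.9% of L4/5 IT-like nuclei, against 41.2%, 41.1%, 26.3% and 29.8% expected from other nuclei, so by nuclei its detection is read as background. The summed level of the 7 GABAergic class markers, all detected in this type, was 736, 721, 393 and 414 CPM. Both sets of values were lower in the risperidone lanes, and the part of one in the other was not tested.

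In the types with the highest Gabrg3 levels, the differences were small. LAMP5-like nuclei had 3418, 3685, 3604 and 3964 CPM (0.01, interval -0.03 to 0.05) and PV-like nuclei 2813, 2941, 2675 and 2949 CPM (-0.12, interval -0.16 to -0.09), and in both types the unscaled lanes overlapped. SPN-like nuclei had 2018, 2086, 1500 and 1623 CPM, a log2 fold change of -0.46 (-0.52 to -0.41), just under the size for a call, with 10.3% to 19.1% expected from other nuclei. Over the 13 neuronal types Gabrg3 was below 0 in 12 and without overlap in 11, where 18.9% of the genes measured in all 13 were lower without overlap in 11 or more. It was below 0 in 8 to 13 over the alternatives. Gabrg3 was called lower in astrocyte-like (-0.76), oligodendrocyte-like (-0.60) and OPC-like nuclei (-0.56), at levels of which 98.2% or more was expected from other nuclei in every lane.

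Gabrg1, a gamma subunit known from glia, gave the only pair called higher, in OPC-like nuclei. Its level was 27.5, 15.2, 40.9 and 47.5 CPM, a log2 fold change of 0.98 (0.43 to 1.54), from 43 UMIs in the saline sum and 85 in the risperidone sum. Both risperidone lanes were above both saline lanes. However, the saline lanes themselves differed by nearly as much in CPM as saline lane 1 and risperidone lane 1, and by more as a ratio. After thinning, Gabrg1 was detected in 5.12%, 2.33%, 5.88% and 10.8% of OPC-like nuclei, against 1.04% to 1.32% expected from other nuclei, with intervals of 2.58% to 8.97% in saline lane 1 and 3.08% to 10.0% in risperidone lane 1 that overlapped. The call was made in 13 of 14 alternatives, but not among nuclei of at least 2000 UMIs. In astrocyte-like nuclei, where Gabrg1 was highest, it was at 72.1, 80.0, 82.1 and 82.8 CPM, a log2 fold change of -0.01 (-0.21 to 0.18).

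**Figure D4:**
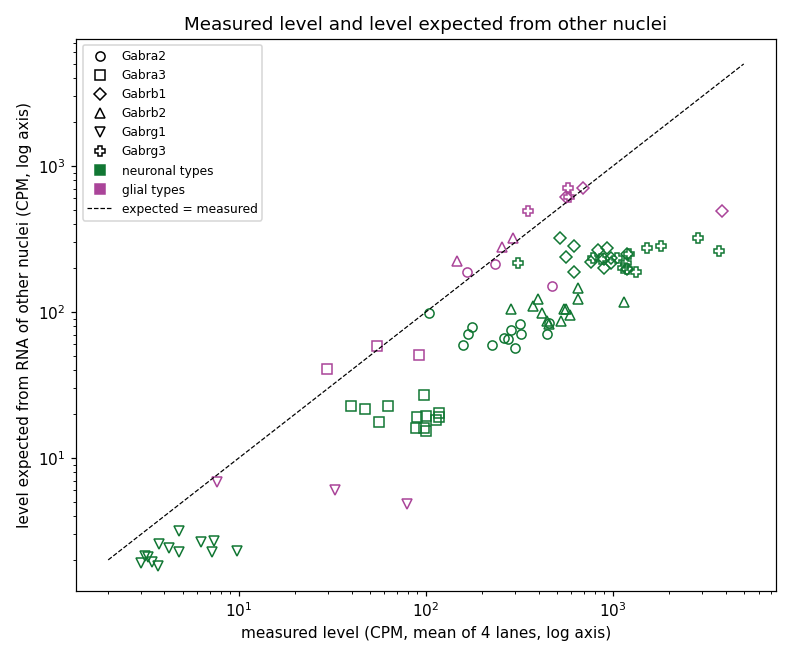
Measured level on the horizontal axis (CPM, mean of 4 lanes, log axis) and level expected from the RNA of other nuclei on the vertical axis (CPM, log axis), with 1 point for each subunit gene and type, a marker shape for each gene, green for neuronal and purple for glial types. Most neuronal points lie well below the dashed line of equality, while most glial points lie on or above it, apart from Gabrb1, Gabra2 and Gabrg1 in astrocyte-like nuclei and Gabrg1 and Gabra3 in OPC-like nuclei.

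Some genes had a pattern over the 16 types like that of a subunit, by Pearson's r of log2(CPM + 1) among 10185 genes, given as a description over types that share lanes and free RNA. For Gabrb1 these were Gm13872 (0.92), Bcat2 (0.92), a branched-chain amino acid transaminase, and Cpe (0.91), a carboxypeptidase that processes neuropeptides. For Gabrb2 they were Mir124a-1hg (0.93), the host transcript of a neuronal microRNA, Gdap1 (0.89) and Gprasp1 (0.89). For Gabrg1 they were Gm16499, Dipk1c and Sall3, each at 0.95, and for Gabrg3 Gm9962 (0.95), Pnma2 (0.87) and Sh3rf3 (0.85). The alpha subunits had less close partners, Chst1 (0.85), Bhlhe41 (0.78) and Mapk4 (0.78) for Gabra2, and Fam155a (0.87), Opcml (0.87) and Fam189b (0.85) for Gabra3. Between members, the values were 0.63 for Gabrb2 and Gabrg3, 0.49 for Gabra2 and Gabrb1, and -0.77 for Gabrb2 and Gabrg1. Gabrg1 was below 10 CPM in all types but astrocyte-like and OPC-like nuclei, so its values of r lean on those types. The Gabrb2 level in astrocyte-like nuclei is read as background.

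A list of 44 other genes of the GABA synapse in 6 roles gives the setting of the subunits. In glutamatergic-like nuclei 30 of the 44 reached 10 CPM, with 0 called higher and 9 called lower, where 4.22% of all genes were called higher and 7.96% lower, and their median log2 fold change was -0.14 against -0.03 over all genes. The count depends on the scaling, since without TMM factors 1 gene was called higher and 2 lower (Gabrd and Nlgn2), where 4.41% of all genes were lower, and it was 7 to 12 lower in the other alternatives. Those called lower were the extrasynaptic subunits Gabra5 (-0.53) and Gabrd (-0.67), the GABA transporter Slc6a11 (-0.58) and the GABA transaminase Abat (-0.57), the adhesion proteins Nlgn2 (-0.61) and Slitrk3 (-0.51), the receptor partners Lhfpl4 (-0.53) and Shisa7 (-0.55), and the GABA-B subunit Gabbr2 (-0.54). The level expected from other nuclei was 41.0% to 54.2% of that of Slc6a11 and 41.0% to 53.2% of that of Abat, and at most 27.6% for the other 7. In the same nuclei the summed class markers of some other types were also lower in the risperidone lanes, at 393, 388, 345 and 335 CPM for the 8 astrocyte markers and 205, 197, 140 and 136 CPM for the 8 oligodendrocyte markers, beside the GABAergic markers given above. The SPN, OPC and mural panels were lower as well. The lanes overlapped for the 9 microglia markers (30.9, 27.7, 30.4 and 28.3 CPM) and the 9 endothelial markers (12.5, 10.8, 11.8 and 11.2 CPM). All of these markers were detected, and their part in the list's values was not tested. Of the 2 chloride transporters, 0 were called. Over the 16 types, Nlgn2 was called lower in 12, Gabrd in 11, Lhfpl4 and Shisa7 in 9 each, and Slitrk3 and Gabbr2 in 8 each, where 4.93% of the 7220 genes tested in 8 or more types were called lower in 8 or more. These genes are named because they were called, so the counts describe them and support nothing further. Gabarapl1, a receptor-trafficking and autophagy protein, was called higher in 8 types, where 3.05% of genes were called higher in 8 or more, with log2 fold changes of 0.51 to 0.91. The vesicular GABA transporter Slc32a1, itself a class marker, was called higher in PV-like (1.49), SST-like (1.41), VIP-like (1.30), LAMP5-like (1.72) and SPN-like nuclei (0.99). In these types 6.76% (SPN-like) to 8.54% (LAMP5-like) of all genes were called higher. Nuclei were assigned to the classes in part by UMIs of Slc32a1, so its levels are not independent of the assignment and its calls support nothing further.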

How the data were processed

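Per the labels and the study's methods, nuclei were sorted and libraries were made with a droplet kit. The authors aligned reads with Cell Ranger 8.0.1 to an mm10 reference, counted intronic reads, and deposited per lane the filtered matrix of raw UMI counts per gene and nucleus, in which UMIs and not reads are counted. Kept nuclei had 500 or more genes and no more than 5% of UMIs from mitochondria. They were assigned to classes and types by a Poisson likelihood of marker panels, and doublet-like nuclei, which carried markers of 2 classes (7.75% to 12.1% per lane), were left out, as were 15.8% to 28.8% that were mixed or assigned to no class. Glutamatergic and GABAergic nuclei without a clear layer or interneuron type stayed in their class but are in none of the types. Their part of the class was larger in the saline lanes, so the types hold unequally filtered nuclei of the conditions. UMIs were summed per type and lane. TMM factors came from edgeR 4.0.16 and alternative size factors from DESeq2 1.42.0 in R 4.3.3; other steps used Python 3.11.15, pandas 2.3.3 and scipy 1.17.1. With 1 pool per condition, no test was run, and exact Poisson, conditional binomial and Clopper-Pearson intervals at 95% were computed. The rule of size (at least 0.5 log2 and 10 CPM, lanes not overlapping after scaling) was checked on simulated counts. These held set changes and Poisson error only, without differences between pools, so the check does not cover such differences.

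UMIs expected from other nuclei were estimated per type and lane from the markers of other classes, and spread over the genes by the profile of all nuclei of the lane, those of the type included. Positions and lengths are GENCODE vM21 on GRCm38, which held 99.6% of the gene identifiers, and upstream windows are RefSeq's. Named genes are the 6 members, the 3 genes most like each over the types, and, of the pathway list, those called in glutamatergic nuclei and some of those called in at least 3 types. Insyn2a (called in 6 types) and Kctd8 (called in 3) also reached that number of types and are not described. The members and lists were chosen with earlier results of these data known. Alternatives were plain CPM, DESeq2 factors, a minimum of 1 CPM, leaving out each lane, nuclei of at least 2000 UMIs, UMIs expected from other nuclei taken out, nuclei split by Xist and Y-linked UMIs, a stricter class call, barcodes of more than 1 lane left out, the top 5% of nuclei by UMIs left out, and layer types weighted equally.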

Additional observations from a re-analysis of the deposited data

How the results depend on the processing

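No paired analysis was possible because each condition is 1 pool, its lanes are technical runs, and the result comes from no test. The count of subunit and type pairs called higher was 1 in the reported setting, 3 among nuclei with Xist and no Y-linked UMIs, 4 among nuclei with Y-linked and no Xist UMIs, and 0 among nuclei of at least 2000 UMIs. As shares these are 1.22%, 3.66%, 4.71% and 0%, against 6.87%, 11.6%, 10.1% and 6.91% over all genes. The count called lower was 12 in the reported setting, 6 with plain CPM, 7 with the UMIs expected from other nuclei taken out (3 of them with 0 risperidone UMIs left), and 5 among nuclei of at least 2000 UMIs. As a share of the pairs tested, the subunits were called lower in 14.6% against 9.69% over all genes in the reported setting, but in 7.32% against 6.64% with plain CPM, 9.46% against 10.2% with the expected UMIs taken out, 6.10% against 8.99% among nuclei of at least 2000 UMIs, and 10.6% against 12.7% among nuclei with Y-linked and no Xist UMIs, so the subunits had the lower share in the last 3. Leaving out 1 lane gave 1 to 1 called higher and 7 to 14 called lower, and the 7 came from leaving out saline lane 1 (8.43% against 8.94% over all genes). Plain CPM lay 0.05 to 0.14 log2 above TMM scaling, depending on the type, and moved the share of calls over all genes that were higher from 41.5% to 60.8%. No value named by the rule reversed its call under any alternative run. Of the log2 fold changes of single pairs, 8 calls were lost among nuclei of at least 2000 UMIs and 6 with plain CPM. The cause was not tested. Gabrg1 was below 10 CPM in 14 of the 16 types and has no call there. With 1 pool per condition, a difference between the conditions and a difference between the pools cannot be told apart.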
